A study of Mus musculus with 96 samples.

Results

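The heart's contractile cells, cardiomyocytes (CM), were profiled on Day 14 and on Day 7 after an acute myocardial infarction (AMI), and the later day was set against the earlier one. The comparison took every library that the labels place in CM at either day, which were 4 at Day 7 and 4 at Day 14 of the 96 libraries in the series. Adult male C57Bl/6J mice without further alleles had a branch of the left anterior descending artery ligated for good, so both groups carried the same infarct and differed in the days since surgery. CM were enriched from the enzymatically digested heart by repeated slow centrifugation, which sorts by weight and not by a surface marker. RNA of up to 3 mice was pooled for each library, each day used other mice, and total RNA depleted of rRNA was sequenced. The replicates are described as both biological and technical, so a p-value below reflects how much pools differ, which may be partly technical.

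Between the first and the second week after an infarct the mouse heart passes from the phase in which granulation tissue is built and dead tissue is cleared to the phase in which the collagen scar is crosslinked and matures. Fibroblasts that have become myofibroblasts lay down fibrillar collagens, lysyl oxidases tie them together, and matricellular proteins such as periostin and osteopontin are secreted for the time of repair. Surviving CM are known to carry a fetal gene program under mechanical load, with natriuretic peptides and the slow myosin chain, and they depend on mitochondrial oxidation of fatty acids. The comparison asks which of these transcripts in the CM isolate still moved between the 2 days.

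The Day 7 libraries held 25247834 to 33331033 estimated reads and the Day 14 libraries 34103494 to 39500115, so that each Day 14 library was deeper than each Day 7 library. Genes of rRNA, those of mitochondrial rRNA included, took 55.4% to 61.9% of the reads of these 8 libraries. No pair of libraries of a day agreed within sampling noise. The CM markers were abundant in all 8 libraries. The troponin genes Tnnt2 and Tnni3, the cardiac actin gene Actc1 and the natriuretic peptide gene Nppb summed to between 3107 and 4596 CPM (estimated reads of a gene per 1000000 reads of its library, rRNA included, after scaling by library composition). The 4 hematopoietic markers summed to between 0.833 and 3.28 CPM.

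Between the days 8 genes fell and none rose. They encode the collagen crosslinking enzyme Lox, the collagen V chain Col5a1, the repair glycoprotein Cthrc1, the metalloproteinase Adamts12, the matricellular protein osteopontin (Spp1), the protease inhibitors Serpina3n and Serpinb1a, and 2210407C18Rik. Of 14540 genes tested, the 8 are 0.055%, and the genes that rose are 0.0%, by edgeR's quasi-likelihood test at an adjusted p under 0.05. At an unadjusted p under 0.05, 439 genes were lower (3.02%) and 392 higher (2.7%), and the median log2 change of all genes was 0.0015. The log2 change was negative for 7208 of the 14540 genes and positive for 7328, the background for the counts of signs below. DESeq2 called 25 genes lower and 7 higher, the 8 among them. The 8 calls lie close to the threshold, with adjusted p of 0.0423 to 0.0490. A fit on these 8 libraries alone, without the other CM days to share the spread, called no gene (1090 at an unadjusted p under 0.05), and neither did fits without Day 7 replicate 4, Day 14 replicate 1 or Day 14 replicate 4. One gene each was called without Day 7 replicate 2 and without Day 14 replicate 3, and 16 without Day 14 replicate 2.

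**Figure D1:**
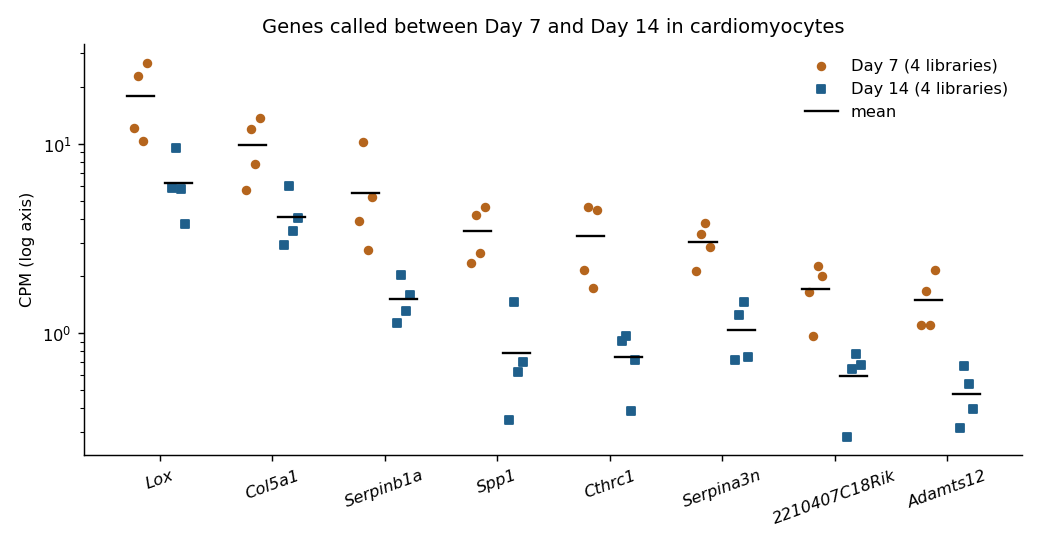
Level in CPM (log axis) of the 8 genes called between the days, with a circle for each of 4 Day 7 libraries, a square for each of 4 Day 14 libraries and a bar at the mean. For each gene except Col5a1 all Day 14 libraries lie below all Day 7 libraries, and for Col5a1 the highest Day 14 library (6.00) lies above the lowest Day 7 library (5.69).

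Lox, the lysyl oxidase that oxidizes lysines of collagen and elastin so that the fibers can crosslink, was the most abundant of the 8 by CPM. In replicates 1 to 4 it was at 12.1, 22.7, 10.3 and 26.8 CPM at Day 7 and at 5.82, 9.46, 5.76 and 3.77 CPM at Day 14. All Day 14 libraries were below all Day 7 libraries. Lox fell by 1.53 ± 0.29 on the log2 scale (value ± SE, edgeR adjusted p = 0.0488, n = 4 and 4), so that its fitted level was 2.90 times as high at Day 7. It was the only gene that met the full naming rule, which asked for a call, a mean of at least 10 CPM and groups that do not overlap. Among all genes tested the groups did not overlap for 367 genes that were lower at Day 14 (2.52%) and for 425 that were higher (2.92%).

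Col5a1 (chromosome 2, 27886425 to 28039514, mm10) encodes a chain of collagen V, a minor fibrillar collagen on which collagen I fibrils are nucleated. Its level was 5.69, 12.02, 7.84 and 13.7 CPM at Day 7 and 2.92, 6.00, 3.44 and 4.05 CPM at Day 14. The groups overlapped by Day 14 replicate 2 alone, which was above Day 7 replicate 1. The gene fell by 1.25 ± 0.24 (edgeR adjusted p = 0.0490).

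Cthrc1 (chromosome 15, 39076932 to 39087121) encodes a secreted glycoprotein that marks activated fibroblasts in injured tissue. It was at 2.16, 4.61, 1.73 and 4.48 CPM at Day 7, from 60 to 156 reads a library, and at 0.912, 0.966, 0.386 and 0.723 CPM at Day 14, from 13 to 39 reads. The Day 14 libraries were all lower, and the fitted level was 4.31 times as high at Day 7 (a fall of 2.11 ± 0.40 on the log2 scale, edgeR adjusted p = 0.0488). Adamts12 (chromosome 15, 11064790 to 11349231), a secreted metalloproteinase that was named after its values were seen, had 36 to 75 reads at Day 7 and 10 to 27 at Day 14. Its mean went from 1.5 ± 0.509 CPM (SD) to 0.478 ± 0.156 CPM without overlap, a fall of 1.64 ± 0.28 (edgeR adjusted p = 0.0423).

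Spp1 (chromosome 5, 104435118 to 104441050) encodes osteopontin, a phosphoprotein that binds integrins and is secreted by macrophages and other cells of injured tissue. It was at 2.34, 4.203, 2.65 and 4.65 CPM at Day 7 and at 0.346, 1.46, 0.623 and 0.701 CPM at Day 14. These levels rest on 77 to 162 reads a library at Day 7 and 11 to 59 at Day 14. Every Day 14 library was below every Day 7 library, and Day 14 replicate 2 was the highest of its group. Spp1 fell by 2.11 ± 0.38, the largest change among the 8 (edgeR adjusted p = 0.0488).

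Serpina3n (chromosome 12, 104406729 to 104414329) encodes a secreted serine protease inhibitor of the acute phase response. Its level was 2.13, 3.32, 3.83 and 2.84 CPM at Day 7 and 0.723, 1.24, 1.45 and 0.745 CPM at Day 14, again without overlap. With a fall of 1.54 ± 0.26 it had, with Adamts12, the lowest adjusted p (0.0423 by edgeR). Serpinb1a (chromosome 13, 32842092 to 32851185), an inhibitor of neutrophil proteases that acts inside the cell, was at 3.89, 10.2, 2.74 and 5.22 CPM at Day 7 and at 1.13, 2.03, 1.31 and 1.58 CPM at Day 14. Day 7 replicate 2 was well above the rest, all Day 7 libraries were above those of Day 14, and the fall was 1.84 ± 0.34 (edgeR adjusted p = 0.0488). Both inhibitors belong to families with near-identical copies, between which estimated counts can be split, so their exact levels are uncertain.

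The gene 2210407C18Rik (chromosome 11, 58608204 to 58616075) was at 1.64, 0.959, 2.25 and 2.01 CPM at Day 7 and at 0.283, 0.644, 0.772 and 0.679 CPM at Day 14. The groups did not overlap, and the fall was 1.52 ± 0.27 (edgeR adjusted p = 0.0446). It and Serpinb1a were named after their values were seen.

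Promoter windows of RefSeq (build GRCm38.p6, from 250 bases before a start to 50 after it) were matched by symbol for 5 of the 8 genes, with 6 windows in all because Spp1 had a pair of starts. They were searched on both strands for the AP-1 site TGAGTCA, the TATA box TATAAA and the CCAAT box CCAAT. Of all 32851 windows in the table, 5.2% held the first, 13.6% the second and 37.4% the third. The windows of Spp1 (upstream start, plus strand, chr5:104434861-104435160) and of 2210407C18Rik (minus strand, chr11:58613443-58613742) were those of the 6 that held any of them, and they are printed 5′ to 3′ on the strand of the gene with the matches in capitals. ATTGG is the CCAAT box read on the other strand.
Spp1: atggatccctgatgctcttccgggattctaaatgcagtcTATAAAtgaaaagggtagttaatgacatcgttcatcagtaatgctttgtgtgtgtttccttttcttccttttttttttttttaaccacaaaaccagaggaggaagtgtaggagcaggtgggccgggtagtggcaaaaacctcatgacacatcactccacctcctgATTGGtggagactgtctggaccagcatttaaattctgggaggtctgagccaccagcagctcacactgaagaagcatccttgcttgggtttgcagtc
2210407C18Rik: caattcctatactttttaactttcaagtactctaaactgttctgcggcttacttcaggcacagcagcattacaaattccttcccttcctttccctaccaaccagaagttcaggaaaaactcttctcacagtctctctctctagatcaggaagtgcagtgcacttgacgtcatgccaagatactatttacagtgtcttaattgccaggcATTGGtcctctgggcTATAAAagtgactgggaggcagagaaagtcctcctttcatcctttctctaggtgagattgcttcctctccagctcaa
In 2210407C18Rik the TATA box letters began at base -27 and the reversed CCAAT letters at base -42 from the start, and in Spp1 at -211 and -46. The windows of Serpina3n (48.7% G and C), Col5a1 (75.0%), Adamts12 (62.0%) and the downstream start of Spp1 (36.7%) held none of these letters.

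The fibrillar and associated collagens had negative changes throughout. Of 17 tested, 1 fell (Col5a1), 12 were lower at an unadjusted p under 0.05 and none higher, and all 17 had a negative log2 change, with a median of -0.99. Col1a1, the main chain of collagen I, was at 48.6, 94.9, 87.2 and 100.7 CPM at Day 7 and at 27.5, 45.7, 21.7 and 20.8 CPM at Day 14. The groups did not overlap, and its log2 change of -1.52 ± 0.31 missed the threshold (edgeR adjusted p = 0.0876). Col3a1, the chain of collagen III that is made early in repair, was at 134 ± 26.9 CPM and 71.3 ± 27.3 CPM, with groups that overlapped (-0.91 ± 0.25, edgeR adjusted p = 0.457). The change was smallest for the collagen VI chain Col6a2 (-0.13 ± 0.31) and for Col8a2 (-0.15 ± 0.54), whereas Col6a3 was at -0.99 ± 0.24 without overlap. Without Day 14 replicate 2, which had the highest Day 14 level of Col1a1, Col1a2, Col3a1 and Col5a1, edgeR also called Col1a1, Col1a2, Col3a1 and Col5a2 lower.

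**Figure D2:**
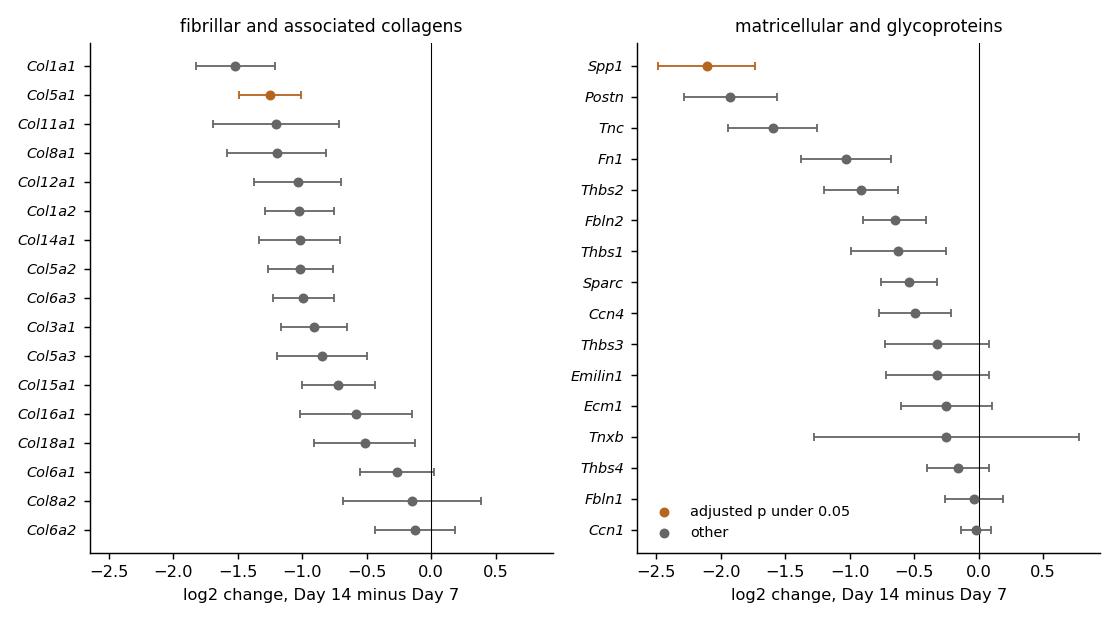
Log2 change from Day 7 to Day 14 with its SE for the 17 collagens (left) and the 16 matricellular proteins and glycoproteins tested (right), with colored points for an adjusted p under 0.05. All 33 points lie below 0, from -2.11 (Spp1) to -0.02 (Ccn1), and the colored points are Col5a1 and Spp1.

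Of 16 matricellular proteins and glycoproteins tested, 1 fell (Spp1) and 7 were lower at an unadjusted p under 0.05, with a median of -0.52. Postn encodes periostin, which activated fibroblasts secrete and which acts in collagen assembly. It was at 27.4, 55.7, 19.01 and 63.1 CPM at Day 7 and at 12.5, 11.6, 14.2 and 5.24 CPM at Day 14. The groups did not overlap, but the Day 7 libraries differed among themselves by more than the gap to Day 14, and the change of -1.93 ± 0.36 just missed the threshold (edgeR adjusted p = 0.0528). The tenascin gene Tnc, a matricellular protein of wound edges, was at 4.12 ± 0.896 and 1.34 ± 0.904 CPM without overlap (-1.60 ± 0.34, edgeR adjusted p = 0.102). The fibronectin gene Fn1 was at 61.2 ± 23.2 and 30.0 ± 15.4 CPM with overlap. The matricellular gene Ccn1 was at 38.6 ± 3.91 and 38.1 ± 4.84 CPM.

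Next came the enzymes that modify collagen. Of 16 tested, 1 fell (Lox) and 4 were lower at an unadjusted p under 0.05, with a median of -0.22. The lysyl oxidase relative Loxl2 was at 12.5 ± 1.66 and 8.32 ± 0.843 CPM without overlap (-0.58 ± 0.19, edgeR adjusted p = 0.560). The collagen chaperone gene Serpinh1 was at 28.7 ± 3.91 and 27.7 ± 2.81 CPM, and the prolyl hydroxylase gene P4ha1 at 12.5 ± 1.84 and 13.6 ± 0.332 CPM. Among 18 matrix proteases and their inhibitors none was called and 6 were lower at an unadjusted p under 0.05 (median -0.49). These included the membrane protease Mmp14 (-0.73 ± 0.26), the urokinase gene Plau (-1.06 ± 0.38) and the protease inhibitor Timp4 (-1.01 ± 0.38). Among 14 genes of scar maturation, Cthrc1 fell, and 8 had a negative change (median -0.25). At an unadjusted p under 0.05, 2 were lower and 1 higher. The matrix genes Comp (0.86 ± 0.56), Cilp2 (1.02 ± 0.61) and Fmod (0.54 ± 0.40) had positive changes that did not pass. Of 13 genes of elastic fibers none was called, and 9 had a negative change (median -0.29). At an unadjusted p under 0.05, 3 were lower and none higher. The most abundant of them, Fbn1, was at 23.9 ± 8.93 and 12.6 ± 2.67 CPM with overlap (-0.92 ± 0.26, edgeR adjusted p = 0.464). The elastin gene Eln was at 10.5 ± 5.91 and 10.5 ± 2.36 CPM. Of 19 genes of TGF-beta signaling none was called, and 14 had a negative change (median -0.17). Of these 19 genes, 3 were lower and 1 higher at an unadjusted p under 0.05. The most abundant of the 19, Fstl1, changed by -0.83 ± 0.23 with groups that overlapped (edgeR adjusted p = 0.457). The ligands Tgfb1, Tgfb2 and Tgfb3 had changes of -0.17, 0.12 and -0.18.

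**Figure D3:**
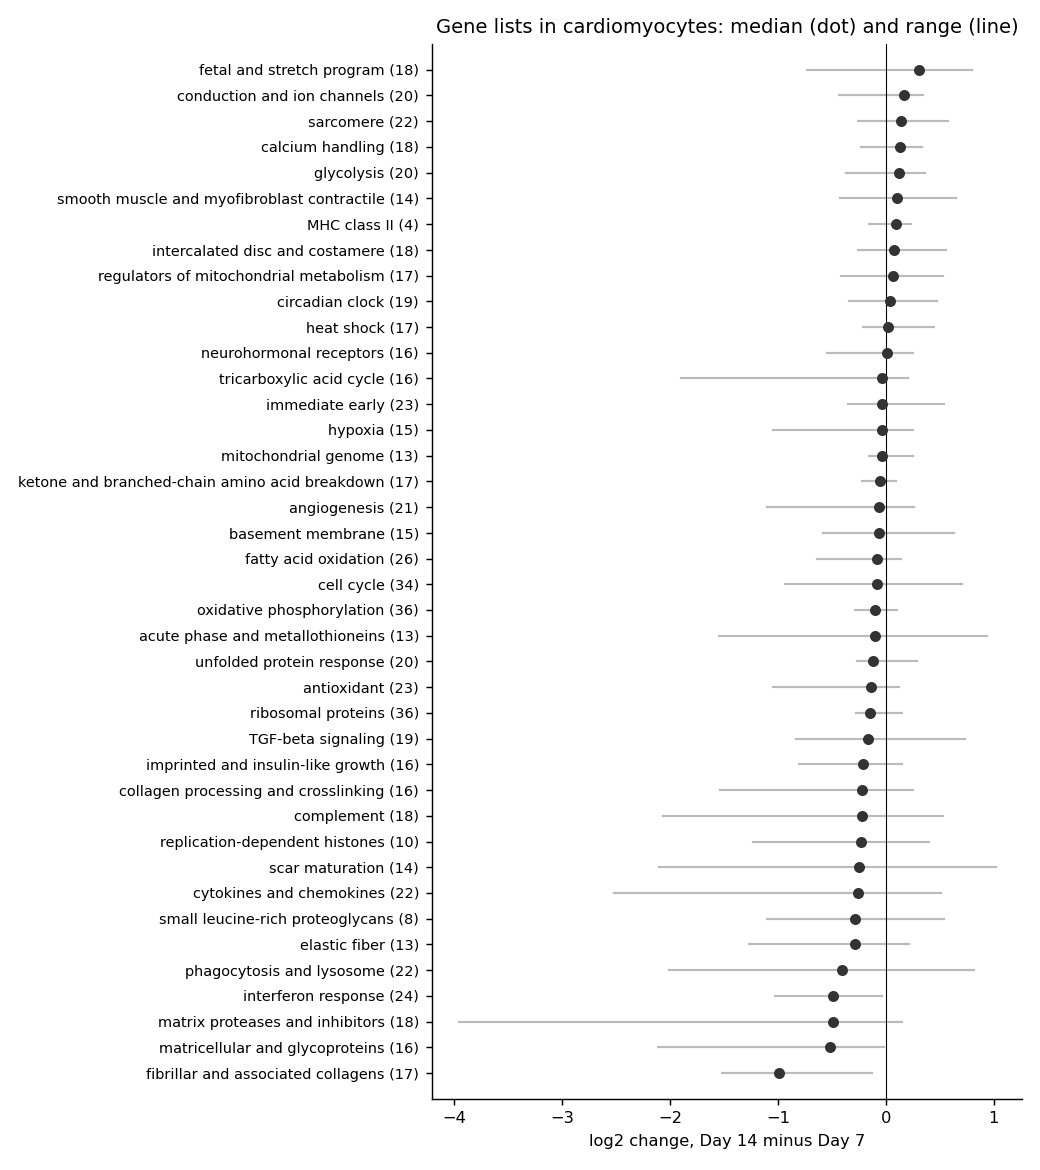
Median log2 change from Day 7 to Day 14 (dot) and the range over the members tested (line) for the 40 lists of genes grouped by function, with the number tested in parentheses. The lowest median was that of the collagens (-0.99) and the highest that of the fetal and stretch program (0.31).

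Apart from Col1a1 and Postn, 5 genes had an adjusted p between 0.05 and 0.1, and these were also named after their values were seen. Slc6a6, the taurine transporter, had the lowest adjusted p of the genes with a positive change. It was at 21.2, 23.0, 19.8 and 21.5 CPM at Day 7 and at 34.3, 30.6, 32.4 and 32.8 CPM at Day 14. The groups lay well apart, with a log2 change of 0.61 ± 0.13 (edgeR adjusted p = 0.0953), which DESeq2 called (adjusted p = 0.00695). The other 4 were lower at Day 14 without overlap. They were Ctss, which encodes the lysosomal protease cathepsin S (-1.54 ± 0.32), the pore-forming protein of macrophages Mpeg1 (-1.80 ± 0.38), Trim30d (-1.40 ± 0.29) and the protease inhibitor Serpine2 (-0.63 ± 0.14). Trim30d belongs to a cluster of similar copies and its level is uncertain for that.

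The lists of phagocytosis and the lysosome and of the interferon response held no called gene. All 24 interferon response genes tested had a negative change, with a median of -0.49 and 5 lower at an unadjusted p under 0.05. Ifi44 was at 2.19, 3.21, 2.10 and 2.35 CPM at Day 7 and at 1.13, 1.81, 0.950 and 1.10 CPM at Day 14 (-0.97 ± 0.24, edgeR adjusted p = 0.228). The groups did not overlap for Ifi44 or for Ifit1 (-0.88 ± 0.25). Of 22 genes of phagocytosis and the lysosome, 7 were lower at an unadjusted p under 0.05 and 20 had a negative change (median -0.40). The Fc receptor gene Fcgr3 was at 0.779 ± 0.171 and 0.324 ± 0.141 CPM, and the cathepsin gene Ctsl at 33.8 ± 2.23 and 25.5 ± 0.569 CPM, both without overlap. Of lysosomal genes that most cells use, Lamp1 was at 79.0 ± 2.98 and 76.3 ± 8.24 CPM and Ctsd was at 107.8 ± 22.3 and 105.4 ± 15.7 CPM. Of 18 complement genes 5 were lower at an unadjusted p under 0.05, among them C1qb, C1qc and the receptor C3ar1, whereas the central component C3 was at 78.2 ± 12.1 and 112.6 ± 69.9 CPM. Of 22 cytokine and chemokine genes none was called, and the chemokine Ccl8 had the largest change on the log2 scale (-2.52 ± 0.56, from 0.318 ± 0.0749 to 0.0510 ± 0.0327 CPM).

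Some summed markers of other cell types were at lower means on Day 14. None of the 15 lists passed after adjustment, but a single list could not have passed. With 4 against 4 libraries, many lists would have to reach the smallest possible p together. The adjusted outcome therefore cannot decide whether a sum changed. The part of other cell types in the results on matrix, phagocyte and interferon genes was not tested. In bulk libraries, fewer cells of a type and less RNA per cell cannot be told apart. The 4 hematopoietic markers summed to 1.99 to 3.28 CPM at Day 7 and 0.833 to 1.88 CPM at Day 14, a ratio of 0.449 (exact permutation test, two-sided, p = 0.0286, the smallest that 4 against 4 libraries allow; adjusted p = 0.214 over 15 lists). Of these markers Itgax and Itgal had at most 3 and 7 reads in a library and were not tested. Ptprc, which encodes CD45 and gave most of the sum, was at 1.49, 2.21, 1.04 and 2.04 CPM at Day 7. At Day 14 it was at 0.566, 0.991, 0.534 and 0.504 CPM. These groups did not overlap, and the log2 change was -1.37 ± 0.32 (edgeR adjusted p = 0.147).

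The 4 fibroblast markers Fap, Ddr2, Tcf21 and Pdgfra all had negative changes and summed to 7.34 to 10.1 CPM at Day 7 and 5.06 to 7.76 CPM at Day 14 (ratio 0.704, exact p = 0.0571, adjusted p = 0.214). The monocyte markers, of which 7 were tested and all 7 had negative changes, summed to 60.5 to 122.5 CPM and 28.3 to 75.6 CPM (ratio 0.519, exact p = 0.0857), and most of that sum came from Fn1 and the thrombospondin gene Thbs1, which other cells use as well. At an unadjusted p under 0.05 by edgeR, 3 of the 7 were lower, Fn1 with overlap. The groups did not overlap for Vcan (-1.01 ± 0.27) or for Ccr2 (-1.34 ± 0.47, means of 0.669 and 0.263 CPM). Of 11 resident macrophage markers 8 had negative changes, and the sums of the list were 18.5 to 28.8 CPM and 18.96 to 22.9 CPM. Most of that sum came from Gas6, at 12.5 ± 2.2 and 14.1 ± 1.2 CPM, which had a positive change (0.17 ± 0.16). The lipid-associated macrophage markers summed to 2017 to 2329 CPM and 1664 to 2041 CPM (exact p = 0.0571), a sum to which Lpl, which CM express, gave 1532 ± 121 and 1328 ± 129 CPM. All 10 of these markers had a negative change (median -0.29), and 2 were lower at an unadjusted p under 0.05 by edgeR. They were the called gene Spp1 and Gpnmb (-1.99 ± 0.44, edgeR adjusted p = 0.13), both without overlap.

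The endothelial markers Flt1, Kdr, Pecam1 and Cdh5 summed to 66.4 to 83.9 CPM at Day 7 and 58.7 to 79.9 CPM at Day 14 (ratio 0.907). Mural cell markers were at a ratio of 0.948, Schwann cell markers at 0.960, mesothelial markers at 1.00, neutrophil markers at 0.920 and the CM markers at 1.10, with exact p of 0.257 to 1. Most of the neutrophil sum came from Cxcr2 (means of 10.18 and 9.92 CPM). All 5 neutrophil markers tested had a negative change, with a median of -2.34 and 3 of them lower at an unadjusted p under 0.05. These 3, S100a8, S100a9 and Mmp9, had Day 7 means of only 0.188, 0.173 and 0.153 CPM. Each had no reads in at least 1 of the libraries, so the size of their changes is uncertain. Erythroid markers (ratio 2.14), B cell markers (2.17), T and NK cell markers (0.640) and adipocyte markers (0.314) rested on few reads or on spread libraries, with exact p of 0.0571 to 0.343, and the adipocyte hormone gene Lep had no reads in the 8 libraries.

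**Figure D4:**
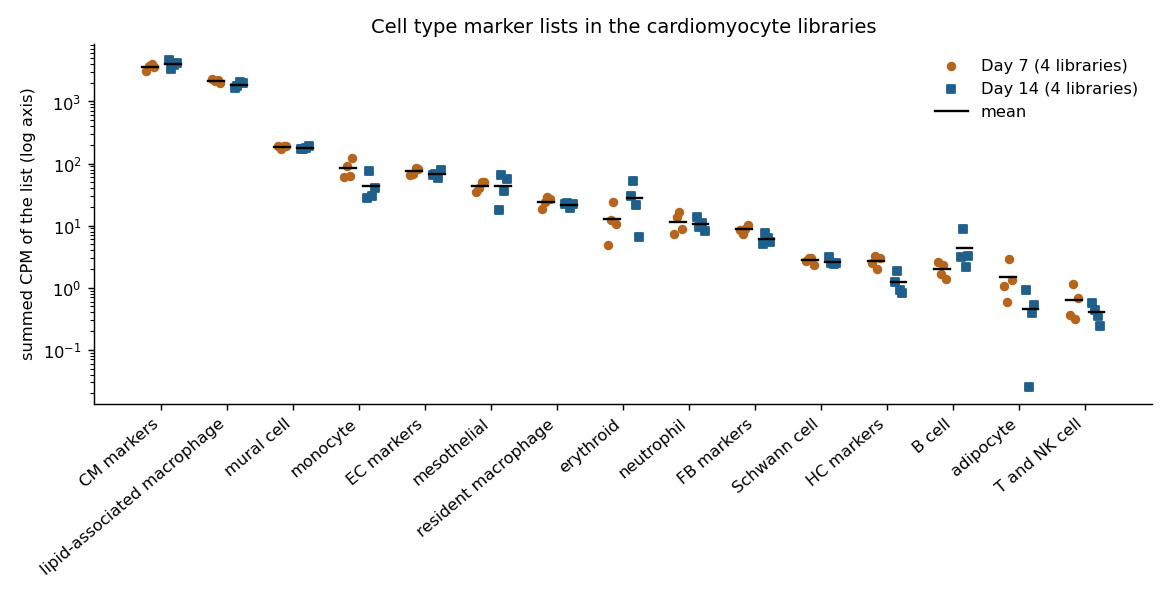
Summed CPM (log axis) of 15 lists of cell type markers in the 8 CM libraries, with circles for Day 7, squares for Day 14 and a bar at the mean. The CM markers (3107 to 4596 CPM) lie above the rest, and the sums of the hematopoietic markers do not overlap between the days (1.99 to 3.28 against 0.833 to 1.88 CPM).

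No gene of the contractile program of CM was called. Of 22 sarcomere genes, 3 were higher at an unadjusted p under 0.05 and none lower, with a median of 0.14. Ttn, which encodes the giant spring protein titin, was at 6988, 5790, 4690 and 5968 CPM at Day 7 and at 7157, 8817, 9796 and 6967 CPM at Day 14. The groups overlapped by the lowest Day 14 library alone, and the change of 0.48 ± 0.18 did not pass (edgeR adjusted p = 0.719). The myosin binding protein gene Mybpc3 (0.37 ± 0.18) and the Z-disc gene Ldb3 (0.26 ± 0.10) were higher in all Day 14 libraries than in any of Day 7 without passing. The adult myosin chain Myh6 was at 2323 ± 369 and 2748 ± 612 CPM, the regulatory light chain Myl2 at 1714 ± 500.5 and 1753 ± 427 CPM, and Tnnt2 at 1001 ± 148 and 982.7 ± 121 CPM.

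Genes of the fetal and stretch program had the highest median among the lists of function, at 0.31, with none of 18 called, 4 higher and 1 lower at an unadjusted p under 0.05. Nppb, which encodes brain natriuretic peptide, was at 107, 128.5, 92.1 and 95.3 CPM at Day 7 and at 267, 129.6, 214 and 127 CPM at Day 14. Day 14 replicates 1 and 3 were well above the rest, while replicates 2 and 4 lay beside the highest Day 7 library (0.80 ± 0.24, edgeR adjusted p = 0.524). Nppa, the atrial natriuretic peptide, was at 308, 564, 216 and 341 CPM and at 851, 516, 494 and 389 CPM, with groups that overlapped (0.66 ± 0.46). The slow myosin chain Myh7 ranged from 29.8 to 136 CPM at Day 7 and from 86.4 to 135 CPM at Day 14 (0.58 ± 0.50). Rcan1, a regulator and target of calcineurin, was at 17.6, 22.9, 12.96 and 21.3 CPM and at 28.6, 29.6, 30.2 and 27.8 CPM. Its groups did not overlap, and the change of 0.64 ± 0.19 missed the threshold (edgeR adjusted p = 0.516). The stretch gene Xirp1 (21.5 ± 3.38 and 31.5 ± 1.13 CPM) and Synpo2l of the Z-disc (18.6 ± 3.78 and 27.5 ± 4.05 CPM) were likewise apart, whereas the skeletal actin gene Acta1 was at 57.8 ± 20.9 and 58.1 ± 5.67 CPM.

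Calcium handling (18 genes, median 0.13) and ion channels (20 genes, median 0.17) held no called gene. The pump gene Atp2a2 was at 2310 ± 280 and 2284 ± 144 CPM, the gap junction gene Gja1 at 187 ± 19.1 and 203 ± 24.7 CPM, and the calcium store gene Casq2 at 186 ± 15.5 and 236 ± 24.2 CPM without overlap (0.34 ± 0.11, edgeR adjusted p = 0.560). The survival gene Bcl2 was at 2.89, 3.02, 1.61 and 2.32 CPM at Day 7 and at 3.62, 4.56, 5.34 and 3.20 CPM at Day 14. These groups did not overlap, and the change was 0.77 ± 0.25 (edgeR adjusted p = 0.560). The cytoskeletal actin gene Actb was at 97.7 ± 20.8 and 88.5 ± 11.6 CPM.

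The metabolic lists had medians near 0. Among 26 genes of fatty acid oxidation, 36 of oxidative phosphorylation, 16 of the tricarboxylic acid cycle and the 13 protein genes of the mitochondrial genome, none was called and none had an unadjusted p under 0.05 in either direction. Their medians were -0.08, -0.10, -0.03 and -0.04, and negative changes numbered 21 of 26, 29 of 36, 8 of 16 and 8 of 13. Atp5b of the ATP synthase was at 750.2 ± 60.1 and 717.6 ± 93.1 CPM, and mt-Co1 of complex IV at 33620 ± 1912 and 35430 ± 3803 CPM. Of 20 genes of glycolysis none passed either, and 17 had a positive change (median 0.13). Gapdh was at 394 ± 88.0 and 396 ± 118 CPM. Among regulators of mitochondrial metabolism the coactivator gene Ppargc1b was at 5.93 ± 0.920 and 8.57 ± 0.747 CPM without overlap (0.53 ± 0.16, edgeR adjusted p = 0.524). Of 34 genes of the cell cycle none was called (median -0.08), and the cyclin gene Ccnd1 was at 9.37 ± 0.563 and 12.7 ± 1.06 CPM without overlap (0.44 ± 0.14, edgeR adjusted p = 0.560). The ribosomal proteins (36 genes, 33 with a negative change, median -0.15) and the unfolded protein response (20 genes, 14 negative, median -0.12) held no called gene.

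The 8 genes were next followed over all 6 days, with unoperated mice as Day 0, in the same fit. The comparisons share libraries with the one that chose the genes, so their counts are descriptions. From Day 3 to Day 7, 4 of the 8 fell and 1 rose, where 5.83% of all genes fell and 3.11% rose. Spp1 was at 37.0 ± 5.44 CPM at Day 3 and 3.46 ± 1.14 at Day 7, a fall of 3.42 ± 0.34 (edgeR adjusted p = 4.42e-06). Serpina3n had been highest at Day 1, at 19.6 ± 2.40 CPM, and fell by 1.74 ± 0.23 between Day 3 and Day 7. Serpinb1a fell by 1.22 ± 0.31 and 2210407C18Rik by 0.84 ± 0.24. Adamts12 rose by 0.91 ± 0.27 (edgeR adjusted p = 0.0372), whereas Lox (17.2 ± 4.06 and 17.98 ± 8.05 CPM), Col5a1 (8.58 ± 2.37 and 9.81 ± 3.70 CPM) and Cthrc1 (2.48 ± 0.514 and 3.24 ± 1.51 CPM) did not pass.

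From Day 14 to Day 28, 6 of the 8 fell and none rose, where 7.02% of all genes fell and 6.64% rose. Lox fell by 2.35 ± 0.33 to 1.26 ± 0.387 CPM, Cthrc1 by 2.65 ± 0.57 to 0.160 ± 0.132 CPM and Spp1 by 2.62 ± 0.59 to 0.163 ± 0.108 CPM. Col5a1, Adamts12 and Serpina3n fell by 1.28, 1.28 and 1.16, and Serpinb1a (-0.71 ± 0.39) and 2210407C18Rik (0.82 ± 0.29) did not pass.

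At Day 14, 7 of the 8 were still above Day 0 and 1 was below it, where 8.04% of all genes were higher and 5.71% lower than at Day 0. Lox was at 6.20 ± 2.37 CPM against 0.482 ± 0.141 at Day 0 (3.71 ± 0.36 on the log2 scale), and Col5a1 at 4.10 ± 1.34 against 0.845 ± 0.106 (2.27 ± 0.28). Spp1 and Cthrc1 had at most 1 and 2 reads in a Day 0 library, so no fold is given. 2210407C18Rik, at 0.595 ± 0.215 CPM, was below its Day 0 level of 1.37 ± 0.248 (-1.19 ± 0.27, edgeR adjusted p = 0.00465). Of the genes that missed the threshold, Postn stood at 16.6, 41.3, 10.9 and 3.70 CPM on Day 3, Day 7, Day 14 and Day 28, and Slc6a6 at 48.1 CPM on Day 1, 21.4 on Day 7, 32.5 on Day 14 and 23.3 on Day 28.

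**Figure D5:**
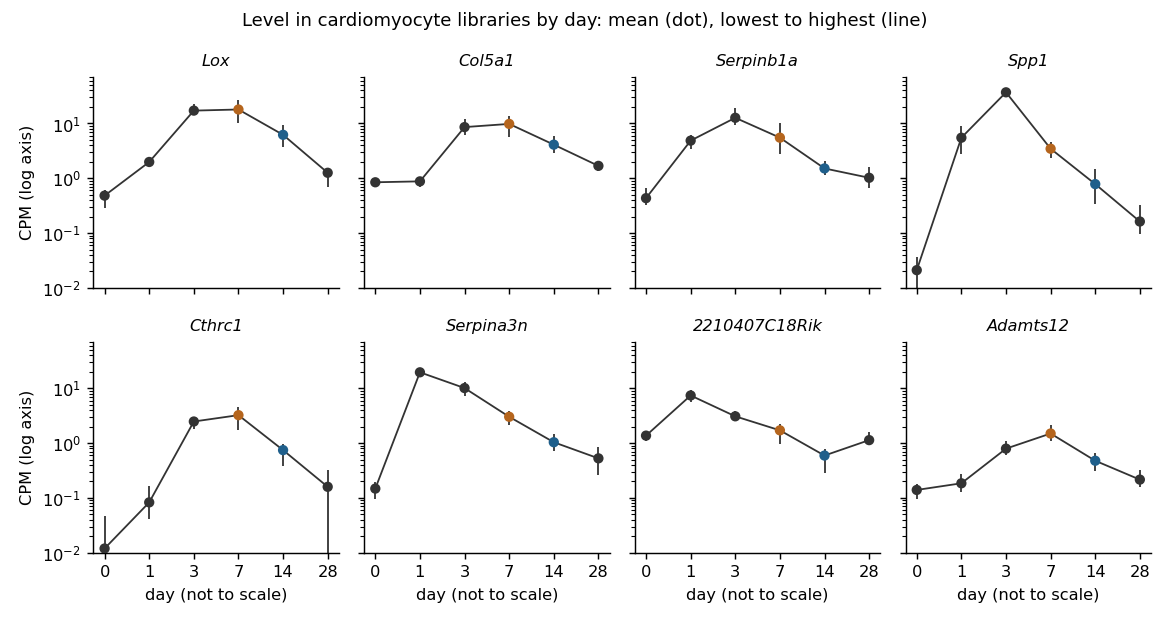
Mean level in CPM (log axis) of the 8 genes in CM at Day 0, 1, 3, 7, 14 and 28 (days not to scale), with a line from the lowest to the highest of 4 libraries that is drawn down to 0.01 where a library had none, and Day 7 and Day 14 colored. Serpina3n and 2210407C18Rik have their highest mean at Day 1, Spp1 and Serpinb1a at Day 3, and Lox, Col5a1, Cthrc1 and Adamts12 at Day 7.

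The change in CM was set against that in endothelial cells (EC) and in fibroblasts (FB) of the same hearts by a test of the difference in change, in fits of 16 libraries each. In these fits no CM change was called, and the 8 genes had adjusted p in CM of 0.0543 to 0.215 with EC and of 0.0669 to 0.277 with FB (edgeR). The cell types of a day came from the same mice, which the fits treat as independent libraries. With same-numbered libraries of a day as a block, the counts of genes that differed were also 4 and 0. Library batch coincided with cell type, and it cancels only if it acts alike on both days. Against EC, 4 of 17287 genes differed (0.0231%), none of them among the 8, and 11 differed with a replicate block within cell type. Against FB, none of 17819 differed (0.0%, with 1445 at an unadjusted p under 0.05 by edgeR's quasi-likelihood test).

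In the EC libraries, 280 of all genes tested fell (1.62%) and 20 rose (0.116%), and 4 of the 8 fell. Genes that fell included Cthrc1 (-2.40 ± 0.36, edgeR adjusted p = 0.00373), Col1a1 (-2.11 ± 0.31, adjusted p = 0.00216), Col5a1 (-1.59 ± 0.27, adjusted p = 0.00756), Serpina3n (-1.78 ± 0.37, adjusted p = 0.0239) and Adamts12 (-1.03 ± 0.20, adjusted p = 0.0105). The other 4 did not pass in EC: Lox was at -1.49 ± 0.37 (edgeR adjusted p = 0.0602), Spp1 at -1.22 ± 0.53 (0.364), Serpinb1a at -0.31 ± 0.28 (0.750) and 2210407C18Rik at -0.29 ± 0.51 (0.898). The last of these had only 2 to 16 reads in an EC library. The change in CM minus that in EC was 0.28 ± 0.57 for Cthrc1, 0.57 ± 0.42 for Col1a1 and 0.32 ± 0.39 for Col5a1. For Lox it was -0.07 ± 0.53, and for Serpinb1a it was -1.54 ± 0.42 (adjusted p = 0.325). These errors leave room for sizable differences in either direction.

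In FB, 5 of all genes tested fell (0.0281%) and 17 rose (0.0954%). None of the 8 passed, with changes from -1.42 ± 1.04 for 2210407C18Rik to 0.21 ± 0.38 for Spp1. In FB 2210407C18Rik had only 0 to 8 reads a library at Day 7 and 0 to 2 at Day 14, so its values there are uncertain. The change in CM minus that in FB was negative for all 8 genes and did not pass for any, from -2.34 ± 0.60 for Spp1 (edgeR adjusted p = 0.411) to -0.13 ± 1.99 for 2210407C18Rik. The 8 were chosen by their fall in the same CM libraries, which favors negative differences to FB and to EC. The signs of these differences are therefore descriptions. Col5a1 changed in FB by -0.26 ± 0.23 and Lox by -0.88 ± 0.35, and the differences to CM were -1.002 ± 0.34 and -0.67 ± 0.50. Levels also differed between the cell types. In CPM over reads outside rRNA genes, Day 7 means in CM, EC and FB were 46.4, 317 and 1579 for Lox. They were 25.2, 325 and 1749 for Col5a1, 8.33, 64.2 and 232 for Cthrc1, and 14.0, 18.7 and 22.5 for Serpinb1a. 2210407C18Rik went the other way, at 4.41, 0.493 and 0.0974. What part other cells had in these levels or changes was not tested.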

How the data were processed

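Total RNA libraries of CM at Day 7 and Day 14 (4 each) were analysed, with the other 16 CM libraries for the spread and EC and FB libraries of both days for the interaction tests. According to the submitters' processing notes and the study's methods, the authors used Trim Galore for trimming, STAR 2.28 for alignment to mm10 and Salmon for quantification. The deposited values of each entry are an estimated count (expected count) and a TPM value, which is scaled for length and depth. Here transcript entries were summed per gene with GENCODE M21 (50973 genes); 1057 entries without a gene, which took no more than 0.119% of reads in any of the 8 libraries, were left out. In FB files, which list genes, 123 genes whose lengths differed were left out. HC libraries were not used here.

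Rounded counts went into edgeR 4.0.16 under R 4.3.3 (TMM, filterByExpr, robust quasi-likelihood fit over 24 CM libraries, Benjamini-Hochberg over all genes of a comparison, calls at an adjusted p under 0.05). The SE is the log2 change over the root of F. Marker sums were compared by exact two-sided permutation tests (scipy 1.17.1). DESeq2 1.42.0, limma 3.58.1 on log2(TPM + 1), other filters, a replicate block and leaving out each library were alternatives, and the scripts were tested on simulated data. Replicate numbers pair no mice between days.

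The comparison, the 55 gene lists and the tests were chosen with earlier results of these data known. The naming rule took genes that were called, averaged 10 CPM or more and had groups that do not overlap (1 gene), up to 4 called members of each list or else its most abundant member, the 16 markers used by the study, Actb and Bcl2. Files also not used were those of the other EC and FB days. The values of 2 list members are left out of the text, and the list counts and medians include them.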

Additional observations from a re-analysis of the deposited data

Results flagged for a closer look

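In 12 of the 166 groups of values examined, the highest or lowest of 4 libraries stood far from the other 3 by Dixon's criterion, and chance alone marks about 1 in 20 groups. At Day 14 replicate 2 was the high library for Fbn1 (16.6 CPM against 10.98 to 11.6 in the others), Fstl1 (29.1 against 17.4 to 18.96), Fap (0.322 against 0.237 to 0.252), Ptprc (0.991 against 0.504 to 0.566), Ctss (1.96 against 0.942 to 1.04) and the sum of B cell markers (8.92 against 2.17 to 3.24). Replicate 4 was the high library of Day 14 for Flt1 (18.8 against 14.2 to 14.8). Among marker sums at Day 14, replicate 3 was low for resident macrophages (18.96 against 22.5 to 22.9) and replicate 1 high for Schwann cells (3.14 against 2.40 to 2.53). At Day 7 replicate 1 was high for Gja1 (215 CPM against 174.5 to 181), replicate 3 low for Igf2r (40.2 against 46.9 to 48.1) and replicate 2 low for the mural cell sum (172 against 191 to 195).

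The change from Day 7 to Day 14 differed between CM and EC for 4 genes by edgeR's test of the interaction. Prox1, a transcription factor gene of lymphatic endothelium and heart muscle, differed by 1.01 ± 0.16 (adjusted p = 0.0390), with 909 to 1380 reads at Day 7 and 1210 to 1769 at Day 14 in CM against 1072 to 1422 and 584 to 886 in EC. The transporter gene Mfsd4a differed by 1.76 ± 0.24 (adjusted p = 0.00482), with 17 to 22 and 28 to 38 reads in CM against 122 to 193 and 65 to 82 in EC. Gm13340 differed by 2.10 ± 0.28 (adjusted p = 0.00482), with 68 to 118 and 146 to 198 reads in CM against 139 to 243 and 63 to 87 in EC. Gm29216 differed by -10.80 ± 0.95 (adjusted p = 0.000119): EC libraries held 0 to 37 reads at Day 7 and 20528 to 35118 at Day 14, whereas CM libraries held 52092 to 94089 and 38483 to 110161. Gm13340 and Gm29216 are predicted genes that can share reads with near-identical sequence, so their values are uncertain.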

How the results depend on the processing

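The direction of the 8 called genes held in each alternative that gave them a value (with a filter of at least 10 CPM only Lox was tested), while the calls did not. Genes called lower numbered 8 with DESeq2 size factors in edgeR and with rRNA genes left out, 25 (and 7 higher) with the DESeq2 Wald test, 3 without a filter on low counts, and 0 in each of a filter of at least 10 CPM, the 8 libraries alone, and limma on log2(TPM + 1) with or without the filter, which called 1 gene higher without it. Limma on log2(TPM + 0.1) called 1 lower, Ccl8. Leaving out 1 library gave 0 to 16 lower and 0 higher. Replicate numbers pair no mice between days, and same-numbered libraries deviated with correlations of -0.125 to 0.273, the best match being the same number for 1 of 8 libraries. A replicate block in the fit of 24 libraries gave 15 lower and 1 higher (Rcan1, 0.68, adjusted p = 0.0401), all 8 included, and in the fit of 8 libraries 0. Counts thinned to the shallowest library, an alternative chosen after seeing the data, gave 0, with adjusted p of 0.0510 to 0.0760 for the 8. Genes that differed between CM and EC numbered 11 with the replicate block within cell type, 4 with same-numbered libraries of a day as a block (chosen after seeing the data), and 3 to 9 when a library was left out, with 9 without EC Day 14 replicate 3; between CM and FB they were 0 to 1, with 1 without FB Day 7 replicate 3. The causes were not tested. Of 58 uncalled named genes, 19 changed sign in some setting, and 75 of 1088 list medians moved by more than the spread between replicates. At Day 14 some of the 8 rested on few reads, 9 to 31 in a library for 2210407C18Rik and 10 to 27 for Adamts12.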
